A study of Mus musculus with 6 samples.

Results

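The 51 protein-coding genes described here encode subunits of the ionotropic and metabotropic glutamate receptors, the GABA type A and type B receptors, the glycine receptors and the nicotinic acetylcholine receptors. They are all the protein-coding rows whose symbols begin with Gria1 to Gria4, Grik1 to Grik5, Grin1 to Grin3, Grm, Gabr, Gabbr1, Gabbr2, Glra, Glrb or Chrn followed by a subunit letter, among 17524 genes in the table, of which 15116 are protein-coding. Their RNA was measured by bulk RNA sequencing of trigeminal ganglia from wild-type (WT) mice, with 3 libraries for vehicle and 3 for NTG. The labels write NTG only, an abbreviation often used for nitroglycerin in studies of migraine in mice. Its dose, route and timing and the strain, sex and age of the animals do not appear in the labels. No label ties a replicate to an animal of its own, so the p-values cover only how far these libraries differ from each other, and part of that may be technical. The comparison asks which of these receptor genes differ between ganglia after NTG and after vehicle.

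The trigeminal ganglion holds the cell bodies of the sensory neurons of the face and meninges, with satellite glia and Schwann cells around them. Their central endings release glutamate in the brainstem, and glutamate, GABA, glycine and acetylcholine receptors on the cell bodies and endings set how readily these neurons fire and release transmitter. AMPA, kainate and NMDA receptors are cation channels of 4 subunits opened by glutamate. GABA type A, glycine and nicotinic receptors are channels of 5 subunits, and the metabotropic glutamate and GABA type B receptors act through G proteins. GABA type A channels commonly combine alpha, beta and gamma subunits.

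The start regions of 4 of these genes are shown. Gabrb2 rose and Grik5 fell with and without a correction for base composition. Gabrg1 and Gabra2 are neighbours on chromosome 5 that rose together as deposited. Neither passed after that correction (limma adjusted p = 0.25 and 0.887). Each sequence covers 250 bases before to 50 after a RefSeq start on GRCm38, 5′ to 3′ on the gene's strand, and is the listed start nearest to the gene's 5′ end. That start lay 3325 bases inside the gene for Grik5 and 925 bases inside it for Gabrb2. For Gabrg1 and Gabra2 the distance was 0. Capitals mark the GC box GGGCGG, the KLF-type sequence GGGNGTGG, the cyclic AMP response element TGACGTCA and the TATA sequence TATAAA, searched on both strands.
Gabrb2, chr11:42420190-42420489, plus strand: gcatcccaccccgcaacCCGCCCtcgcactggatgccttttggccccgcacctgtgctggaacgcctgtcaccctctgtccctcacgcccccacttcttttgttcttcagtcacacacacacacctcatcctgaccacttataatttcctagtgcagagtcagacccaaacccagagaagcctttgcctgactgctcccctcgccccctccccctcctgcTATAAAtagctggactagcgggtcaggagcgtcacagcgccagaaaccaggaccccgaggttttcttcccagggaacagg
Gabrg1, chr5:70842568-70842867, minus strand: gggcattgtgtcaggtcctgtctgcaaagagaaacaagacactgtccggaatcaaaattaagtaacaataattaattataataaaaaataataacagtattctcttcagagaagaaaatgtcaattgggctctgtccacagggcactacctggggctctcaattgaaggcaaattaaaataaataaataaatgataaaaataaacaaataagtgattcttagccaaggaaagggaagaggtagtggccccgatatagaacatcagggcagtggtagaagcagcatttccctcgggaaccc
Gabra2, chr5:71095800-71096099, minus strand: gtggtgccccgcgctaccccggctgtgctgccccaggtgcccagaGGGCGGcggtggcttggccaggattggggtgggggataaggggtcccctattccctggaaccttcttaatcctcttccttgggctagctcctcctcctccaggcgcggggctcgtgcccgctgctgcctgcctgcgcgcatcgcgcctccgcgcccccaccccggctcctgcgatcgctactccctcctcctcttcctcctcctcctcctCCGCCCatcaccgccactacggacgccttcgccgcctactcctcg
Grik5, chr7:25072320-25072619, minus strand: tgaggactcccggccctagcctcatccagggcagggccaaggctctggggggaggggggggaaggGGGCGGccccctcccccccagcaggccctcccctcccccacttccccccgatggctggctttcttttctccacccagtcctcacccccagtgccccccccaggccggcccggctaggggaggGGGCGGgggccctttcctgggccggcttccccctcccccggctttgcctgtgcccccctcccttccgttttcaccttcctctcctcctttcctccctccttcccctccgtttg
The Gabrb2 region held 1 GC box and 1 TATA sequence, those of Gabra2 and Grik5 held 2 GC boxes each, and that of Gabrg1 held none of the 4 motifs. No motif overlapped another. Over the 32851 regions of the RefSeq table, 35.7% held a GC box, 17.6% the KLF-type sequence, 13.6% the TATA sequence and 1.79% the cyclic AMP response element. Start regions were listed for 37 of the 51 receptor genes, with a median GC content of 63.0% against 52.7% over the whole table. The neighbours Gabra2 and Gabrg1 had start regions of 70.0% and 38.3% GC, although both transcripts were poor in GC (38.4% and 35.3%). A match describes these letters only.

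Of the 51 receptor genes, 11 rose and 5 fell in NTG (limma-trend on log2 of the normalised reads plus 1, two-sided, Benjamini-Hochberg adjusted p under 0.05). This was 21.6% and 9.8% of them, against 12.3% of all 17475 genes tested that rose and 13.5% that fell. Their median log2 fold change was 0.12, against 0.00 over all genes tested. The 11 that rose included the GABA type A genes Gabra2, Gabrb2 and Gabrg1, the AMPA genes Gria3 and Gria4, the kainate gene Grik2, the glycine receptor gene Glrb and the nicotinic gene Chrna6. The 5 that fell were Grik5, Grin1, Grin2d, Grm4 and Gabbr2. In 14 of the 51 genes the 3 NTG values were all above and in 7 of the 51 all below the vehicle values. Over all genes tested these shares were 19.7% and 20.0%. All 51 passed the filter on low values. No call fell among the 20 genes under a mean of 5 CPM (reads scaled to library size), and all 16 were among the 31 genes above it. In bulk tissue, fewer cells of a type and less RNA per cell cannot be told apart.

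**Figure D1:**
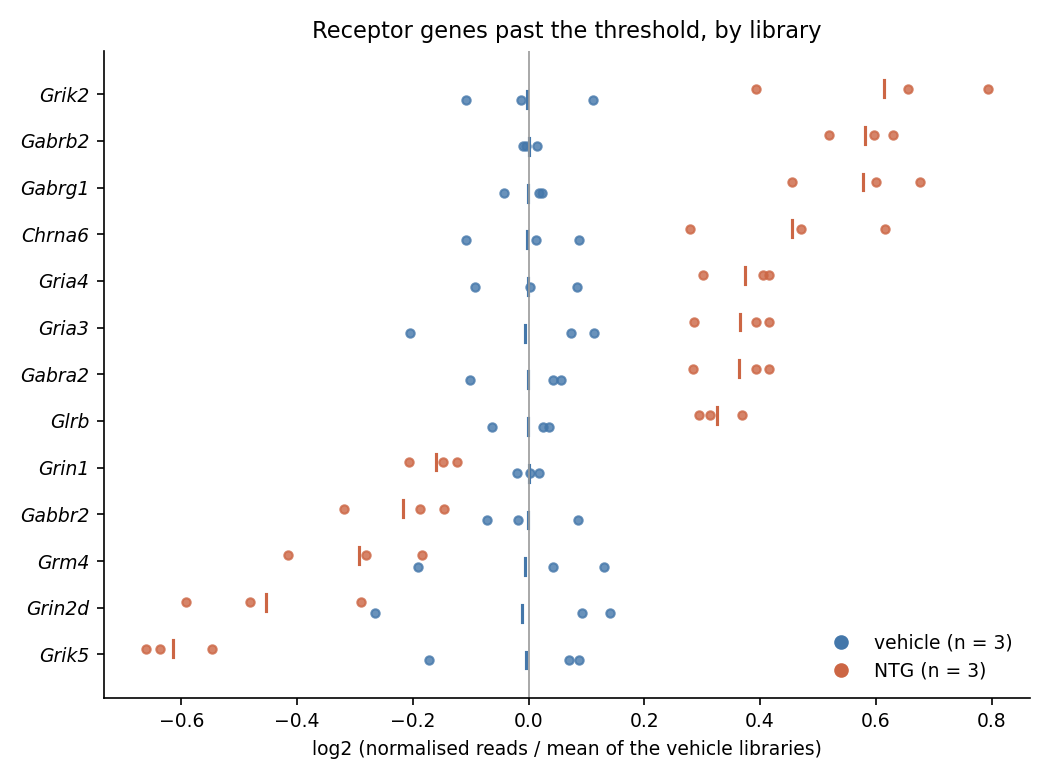
The 13 named receptor genes past the threshold, with each library's normalised reads as a log2 ratio to the mean of the 3 vehicle libraries; dots are libraries and short bars are group means. The groups are apart in every gene shown except Grm4, whose highest NTG value (1473) lay above its lowest vehicle value (1466).

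The direction of these changes followed the base composition of the transcripts, as it did across the whole table. The 11 genes that rose had longest annotated transcripts of 35.3% to 47.6% GC (median 40.8%), and the 5 that fell 56.0% to 65.0% (median 61.7%). Among the 17 receptor genes under 45% GC, 10 rose and 0 fell, among the 23 between 45% and 55% 1 rose and 0 fell, and among the 11 over 55% 0 rose and 5 fell. In a further fit, the trend of expression with GC content and length was smoothed and taken out of every library before the same test. Afterwards 2 of the 51 receptor genes rose, Gabrb2 and Chrna6, and 1 of the 51 fell, Grik5. Over all 16278 genes tested in this way 3.49% rose and 5.5% fell. The median log2 fold change of the 51 was then 0.04, against 0.01 over all genes. The values after this removal are given below beside each named receptor gene past the threshold; none of the other named receptor genes passed in that form.

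**Figure D2:**
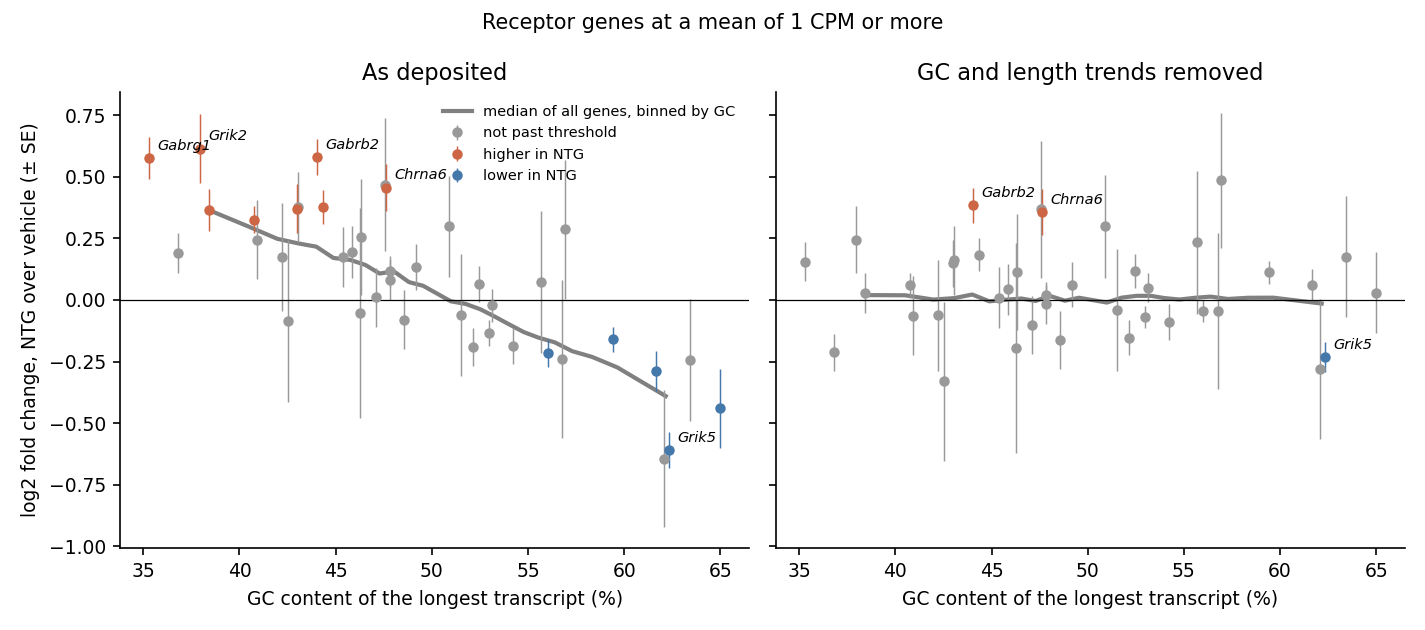
Log2 fold change (NTG over vehicle, ± SE) against the GC content of the longest transcript for 40 receptor genes at a mean of 1 CPM or more, as deposited (left) and with the GC and length trends removed (right); the grey line is the median of all genes in 25 bins of GC content. On the left the receptor genes lie along the falling grey line, and on the right Gabrb2 and Chrna6 stand above and Grik5 below a flat line.

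AMPA receptors carry most fast excitation by glutamate. Per length, Gria4 was the highest of the 4 genes, at 10.5 ± 0.583 RPKM (reads per kilobase of transcript, scaled to the total reads of the library) in vehicle and 13.8 ± 0.700 in NTG (SD, n = 3 each), or 48.8% and 51.9% of the summed level of the family. Gria4 had 1108, 1184 and 1253 normalised reads in the vehicle libraries and 1576, 1565 and 1457 in the NTG libraries. All 3 NTG values lay above the vehicle values (log2 fold change 0.38 ± 0.07 (SE), limma adjusted p = 0.000477). With the trends removed it was 0.18 (limma adjusted p = 0.0787). Gria3 had 455, 468 and 376 normalised reads in vehicle and 569, 578 and 528 in NTG, again without overlap (0.37 ± 0.10, limma adjusted p = 0.00857, and 0.388 after the removal). Its call was lost without NTG replicate 2 (limma adjusted p = 0.0508). Gria2, whose edited subunit keeps calcium out of the channel, stood at 905 ± 84.5 and 1033 ± 70.2 normalised reads and did not pass (log2 fold change 0.19, limma adjusted p = 0.0872). Its estimate turned to -0.21 after the removal, also without a call (limma adjusted p = 0.0778). Gria1 stood at 313 ± 22.0 and 297 ± 35.9 (limma adjusted p = 0.671).

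Kainate receptors are glutamate channels for which sensory neurons are a classic site, with Grik1 as their main subunit. The 2 largest changes among these 5 genes went opposite ways. Grik5, whose subunit binds kainate with high affinity but needs a partner subunit to form a channel, had 1775, 2099 and 2124 normalised reads in vehicle and 1264, 1286 and 1368 in NTG. The highest NTG value was well below the lowest vehicle value, and Grik5 was 1.53-fold lower than in vehicle (a log2 fold change of -0.61 ± 0.07, limma adjusted p = 9e-06). It still fell after the GC and length removal, with a log2 fold change of -0.23 ± 0.06 (limma adjusted p = 0.0131). In that form the call was lost without vehicle replicate 2, without vehicle replicate 3, without NTG replicate 2 and without NTG replicate 3 (limma adjusted p up to 0.0645). Grik2, which can form channels alone or with Grik5, had 162, 177 and 152 normalised reads in vehicle and 284, 258 and 215 in NTG. It was 1.53-fold higher (0.61 ± 0.14, limma adjusted p = 0.00279), but after the removal the log2 fold change was 0.25 (limma adjusted p = 0.304).

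Per length, Grik2 remained the lowest kainate gene, at 0.840 ± 0.0630 RPKM in vehicle and 1.31 ± 0.193 RPKM in NTG. Grik1 was the highest, at 33.9 ± 0.991 and 37.1 ± 2.70, and its normalised reads were 2621, 2544 and 2508 in vehicle and 2750, 2986 and 2592 in NTG. These overlapped, and Grik1 did not pass (log2 fold change 0.12, limma adjusted p = 0.180). With Grik5 lower, the share of Grik1 in the summed per-length level of the family was 44.6% in vehicle and 53.6% in NTG. The ratio of Grik5 to Grik1 per length, named after its values were seen, was 0.658, 0.801 and 0.822 in the vehicle libraries and 0.447, 0.418 and 0.513 in the NTG libraries, so it was lower in all 3 NTG libraries. The share and the ratio are of levels as deposited, and the transcripts differ in GC content (62.3% for Grik5 and 47.9% for Grik1). After the GC and length removal the log2 fold changes were -0.23 for Grik5 and 0.02 for Grik1. Grik3 (950 ± 48.5 to 834 ± 22.5 normalised reads) and Grik4 (1275 ± 117 to 1115 ± 72.4), the other high-affinity subunit, each lay lower in all 3 NTG libraries without passing (limma adjusted p = 0.0689 and 0.0733).

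NMDA receptors need the subunit of Grin1 in every channel. Grin1 held 90.8% of the family's per-length level in vehicle and 90.5% in NTG. Its normalised reads were 5740, 5828 and 5891 in vehicle and 5041, 5339 and 5252 in NTG, a small fall without overlap (log2 fold change -0.16 ± 0.05, limma adjusted p = 0.0239). The estimate turned to 0.11 after the GC and length removal and was not called (limma adjusted p = 0.134). It also missed the threshold without vehicle replicate 2, vehicle replicate 3, NTG replicate 1 or NTG replicate 2 (limma adjusted p up to 0.0928). The antisense gene Grin1os lies wholly within Grin1 on the opposite strand and was listed at 0.233 times its level (1360 ± 73.2 and 1211 ± 37.3 normalised reads, limma adjusted p = 0.0782). The labels do not give the strand setting of the counting, so reads of this pair may not be told apart.

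Grin2d, a regulatory subunit that slows channel closing, had 189, 147 and 195 normalised reads in vehicle and 127, 117 and 145 in NTG. Its call was the closest to the threshold of all 16 (log2 fold change -0.44 ± 0.16, limma adjusted p = 0.0492). It was not called by edgeR (adjusted p = 0.0538) or DESeq2 (adjusted p = 0.067) on the recovered reads, and the estimate was 0.03 after the removal. Leaving out vehicle replicate 1, vehicle replicate 3, NTG replicate 1 or NTG replicate 2 ended the call (limma adjusted p up to 0.195). Grin3a, whose subunit lowers calcium entry, stood at 562 ± 72.4 and 613 ± 12.4 normalised reads, and Grin2c at 61.0 ± 12.8 and 39.2 ± 12.2 (limma adjusted p = 0.325 and 0.095). Grin3b, at 58.0 ± 6.90 and 49.0 ± 8.28, overlaps by 71 bases the opposite-strand gene Tmem259, which was listed at 48.2 times its level.

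Among the metabotropic glutamate receptors the group III genes Grm4, Grm7 and Grm8, which lower transmitter release from nerve endings, held the highest levels. Grm4 was first per length (17.6 ± 1.86 in vehicle and 14.5 ± 1.02 RPKM in NTG). It had 1466, 1723 and 1831 normalised reads in vehicle and 1254, 1377 and 1473 in NTG, so the groups overlapped by a single value. The test called it lower (log2 fold change -0.29 ± 0.08, limma adjusted p = 0.0131). With the trends removed the estimate was 0.06 (limma adjusted p = 0.624), and the call was also lost without vehicle replicate 2, vehicle replicate 3 or NTG replicate 1 (limma adjusted p up to 0.0741). Grm7 (847 ± 66.4 and 896 ± 61.6 normalised reads) and Grm8 (331 ± 27.2 and 378 ± 10.3) did not pass. The group I gene Grm5, whose receptor couples to phospholipase C, and the group II genes Grm2 and Grm3 were each under 5 CPM, and their log2 fold changes lay between -0.09 and 0.47 with no call.

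The GABA type A genes gave the most calls, 6 rises and 0 falls among 15. This was 40% and 0% of them, against 12.3% and 13.5% of all genes tested. The median GC content of their transcripts was 42.2%, and after the GC and length removal 1 passed as higher and 0 as lower. Gabrb2 had the smallest adjusted p of the genes that rose. Its normalised reads were 719, 731 and 722 in vehicle and 1095, 1120 and 1037 in NTG, a 1.5-fold difference (log2 fold change 0.58 ± 0.07, limma adjusted p = 1.45e-05). The 3 vehicle values were close together and all NTG values stood far above them. After the GC and length removal it was 0.39 ± 0.07 (limma adjusted p = 0.000581). Leaving out each library in turn never ended the call, with limma adjusted p up to 0.000349 as deposited and up to 0.0129 after the removal.

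A cluster on chromosome 5 holds Gabrg1, Gabra2, Gabra4 and Gabrb1. Gabrg1 had 547, 523 and 545 normalised reads in vehicle and 816, 861 and 738 in NTG, and Gabra2 had 539, 484 and 534 in vehicle and 692, 682 and 632 in NTG. Both rose without overlap (log2 fold changes 0.58 ± 0.08 and 0.37 ± 0.09, limma adjusted p = 5.87e-05 and 0.00356). Gabrg1 has the lowest transcript GC content of the 51 genes, and after the removal its estimate was 0.16 (limma adjusted p = 0.25). That of Gabra2 was 0.03 (limma adjusted p = 0.887). Gabra4 and Gabrb1 overlap head to head by 388 bases on opposite strands. In each group they had fewer normalised reads than Gabrg1 and Gabra2 (59.7 ± 2.07 in vehicle and 67.7 ± 5.99 in NTG, and 156 ± 31.1 and 182 ± 9.97). Neither passed.

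Among the other GABA type A genes, Gabra5 stood at 392 ± 64.0 and 393 ± 42.3 normalised reads (limma adjusted p = 0.963). Gabrg3 stood at 16.4 ± 5.71 and 13.6 ± 5.29. On chromosome X, Gabra3 lay higher in all 3 NTG libraries (164 ± 18.5 and 212 ± 13.4) and missed the threshold (log2 fold change 0.38, limma adjusted p = 0.054). Gabrd, Gabre, Gabrr2 and Gabrr3 were low. The rho subunit gene Gabrr2 had the largest positive estimate of the 51 genes, at 2.18, 14.4 and 3.30 normalised reads in vehicle and 18.9, 10.7 and 16.5 in NTG. These overlapped and rested on 2 to 19 reads a library (log2 fold change 1.42 ± 0.64, limma adjusted p = 0.110).

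GABA type B receptors are obligate pairs of the subunits of Gabbr1 and Gabbr2, and damp calcium channels and transmitter release. Gabbr1 had the highest level per length of all 51 genes (91.8 ± 3.29 in vehicle and 84.5 ± 4.28 RPKM in NTG). Its normalised reads were 9565, 9933 and 10379 in vehicle and 8444, 9296 and 9472 in NTG, without overlap, but it did not pass (log2 fold change -0.14 ± 0.05, limma adjusted p = 0.0653). The call was made without vehicle replicate 1 (limma adjusted p = 0.0412), without NTG replicate 3 (limma adjusted p = 0.0337) and with the replicate number as a block (limma adjusted p = 0.00822), but not after the GC and length removal (-0.07, limma adjusted p = 0.399). Gabbr2 had 6226, 6944 and 6464 in vehicle and 5248, 5746 and 5916 in NTG. It was also without overlap and passed (-0.22 ± 0.06, limma adjusted p = 0.00824), though not without vehicle replicate 2 or NTG replicate 1 (limma adjusted p up to 0.0699) and not after the removal (-0.05, limma adjusted p = 0.607). Per length, the ratio of Gabbr2 to Gabbr1 was 0.600 ± 0.0352 in vehicle and 0.567 ± 0.0029 in NTG, and the groups overlapped.

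Of the glycine receptor genes, Glrb encodes the beta subunit, which binds the synaptic scaffold gephyrin and needs an alpha subunit to form a channel. It had 3048, 2869 and 3070 normalised reads in vehicle and 3673, 3867 and 3725 in NTG. The NTG values were all higher (log2 fold change 0.33 ± 0.06, limma adjusted p = 0.000249), but the estimate after the GC and length removal was 0.06 (limma adjusted p = 0.555). Glrb lies beside Gria2 on chromosome 3. The alpha subunit gene Glra1 had 32.7, 2.06 and 8.81 normalised reads in vehicle and 0, 7.47 and 1.73 in NTG, which overlapped. At 0 in NTG replicate 1, counting error alone allows up to 0.155 CPM (3 reads). The highest value was in vehicle replicate 1, which also had the highest summed level of the 9 markers of central oligodendrocytes and astrocytes (642 CPM, against 465 and 602 in the other vehicle libraries and 459 to 514 in NTG). The central neuron markers, nearly all Slc17a7, were instead highest in vehicle replicate 2 (348 CPM, against 332 in vehicle replicate 1). The part of central tissue in the Glra1 values was not tested.

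Nicotinic receptors gave 1 call among 11 genes, a rise. This was 9.09% higher and 0% lower, against 12.3% and 13.5% of all genes tested. Chrna6, whose subunit forms channels with that of its neighbour Chrnb3, had 506, 532 and 465 normalised reads in vehicle and 608, 694 and 767 in NTG. The groups did not overlap, and Chrna6 was 1.37-fold higher (log2 fold change 0.46 ± 0.10, limma adjusted p = 0.0014). After the GC and length removal it was 0.36 ± 0.09 (limma adjusted p = 0.0148), a call that was lost without NTG replicate 2 or NTG replicate 3 (limma adjusted p up to 0.144). Chrnb3 stood at 241 ± 15.2 and 272 ± 26.5 normalised reads and did not pass (0.17, limma adjusted p = 0.319). The ratio of Chrna6 to Chrnb3 per length, named after its values were seen, was 3.13, 3.47 and 3.27 in vehicle and 3.77, 4.23 and 4.0 in NTG, higher in all 3 NTG libraries.

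Chrna7, which forms channels on its own, was the highest nicotinic gene per length (22.0 ± 1.08 in vehicle and 23.2 ± 0.170 RPKM in NTG), with 932, 996 and 901 normalised reads in vehicle and 967, 988 and 1001 in NTG. It did not pass (limma adjusted p = 0.561), nor did Chrnb2 (2179 ± 137 and 2148 ± 149 normalised reads, limma adjusted p = 0.854). Chrna3 (87.5 ± 26.6 and 104 ± 26.1) and Chrnb4 (61.1 ± 15.9 and 57.4 ± 5.11), the pair of autonomic ganglia, and Chrna5, which overlaps Chrna3 by 1304 bases on the opposite strand, did not pass either. The muscle-type genes Chrna1 (22.8 ± 10.9 and 20.1 ± 3.35) and Chrnb1 (75.1 ± 11.7 and 92.2 ± 10.5) did not pass. Of 13 skeletal muscle markers 7 fell and 0 rose, against 13.5% and 12.3% of all genes tested. After the GC and length removal 5 fell and 0 rose, against 5.5% and 3.49%. The markers Tnnc2 and Tnnt3 had a library at 0. Chrna4 and Chrna10 were low in both groups (41.3 ± 12.5 and 42.5 ± 6.0, and 18.2 ± 7.03 and 19.1 ± 3.34).

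**Figure D3:**
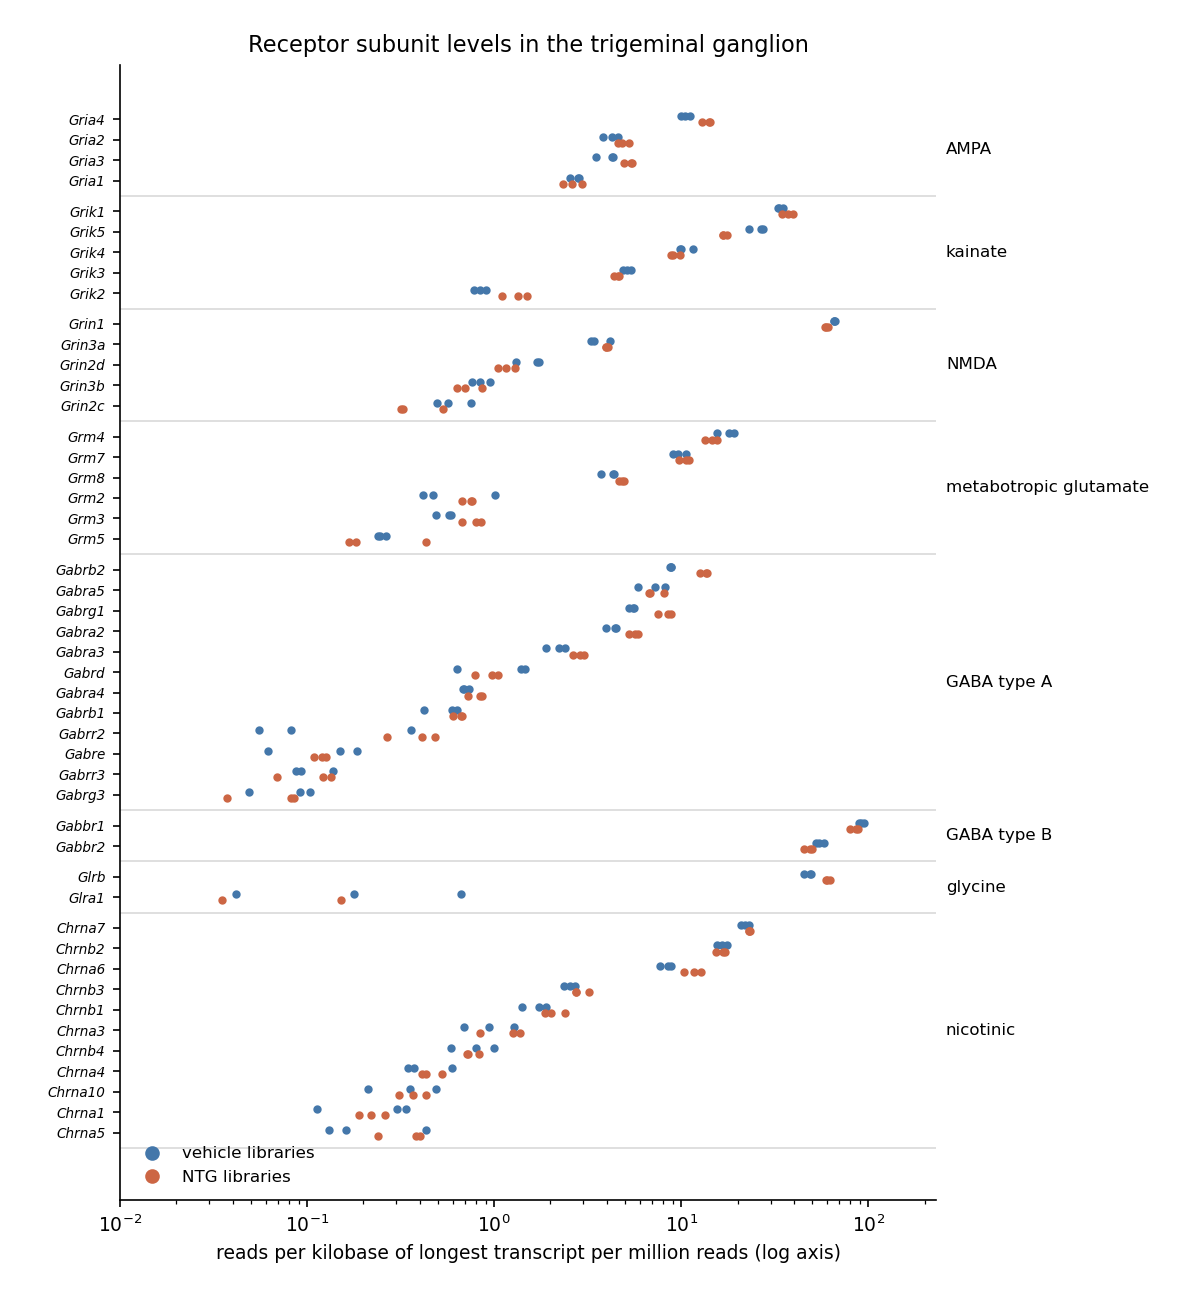
Level of 47 receptor genes in each library, in RPKM of the longest annotated transcript, on a log axis, grouped by receptor family and ordered by the vehicle mean; the NTG replicate 1 value of Glra1 is 0 and is not drawn. Gabbr1, Grin1, Gabbr2, Glrb and Grik1 lead, and most low genes show overlapping groups.

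Summed per length, the GABA type A genes stood at 82.5 ± 3.20 RPKM in vehicle and 108 ± 3.18 in NTG, and the AMPA genes at 21.5 ± 0.525 and 26.5 ± 0.945. The median log2 fold change of the 15 GABA type A genes was 0.25 as deposited and 0.03 after the GC and length removal, when 1 of them passed. That of the 4 AMPA genes was 0.28 and -0.01, and none passed after it. The kainate genes stood at 76.0 ± 2.04 and 69.2 ± 1.86, the NMDA genes at 72.5 ± 1.20 and 65.9 ± 1.36 and the GABA type B genes at 147 ± 4.42 and 132 ± 6.73. Metabotropic glutamate genes stood at 33.0 ± 1.84 and 31.6 ± 1.51, and nicotinic genes at 54.0 ± 2.17 and 59.5 ± 2.49. These sums are of levels as deposited and carry no test, and a level per length depends on which annotated transcript is in use.

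**Figure D4:**
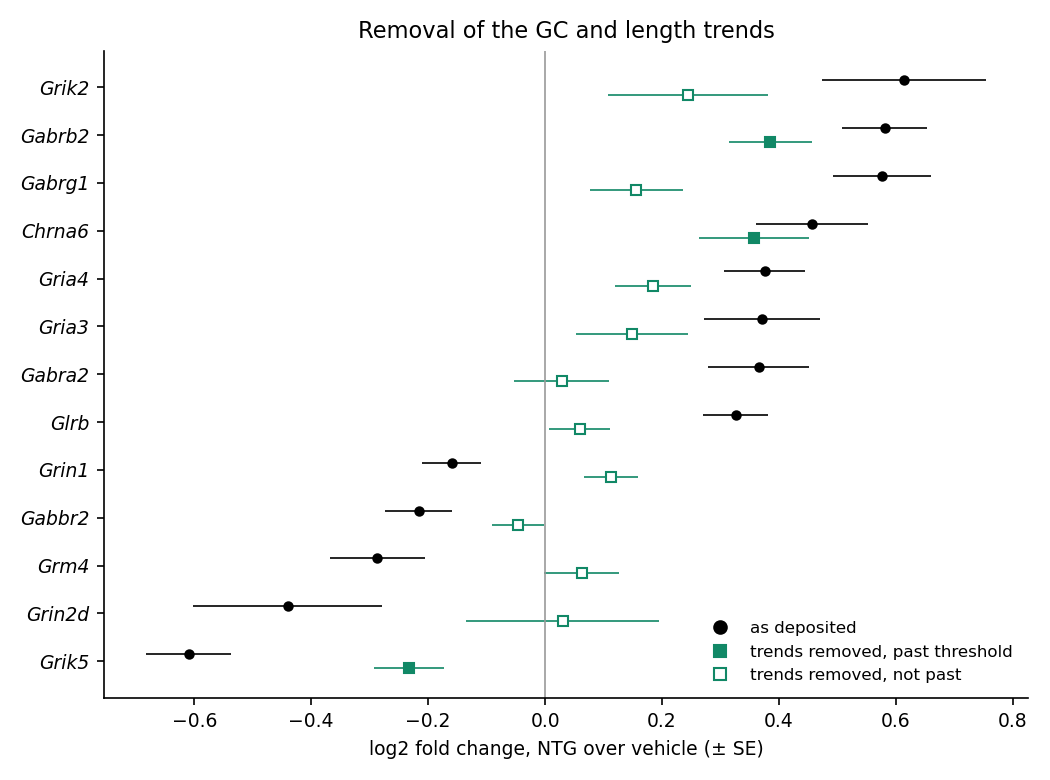
Log2 fold change (± SE) of the 13 named receptor genes past the threshold, as deposited (black dots) and after each library's trend over GC content and length was removed (green squares, filled where past the threshold). Grik5, Gabrb2 and Chrna6 keep filled squares, while the squares of Grin1, Grm4 and Grin2d cross 0.

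The genes that make, carry or anchor these transmitters and receptors were taken from 12 lists. Of 122 tested, 15 rose and 22 fell, or 12.3% and 18%, against 12.3% and 13.5% of all genes tested. With the GC and length trends removed the counts were 5 and 10 (4.1% and 8.2%, against 3.49% and 5.5%), which include genes not called before it. Among 16 auxiliary subunits of AMPA and kainate receptors, 0 rose and 4 fell, and 3 fell after the removal. The cornichon gene Cnih2 went from 338 ± 34.1 to 200 ± 21.1 normalised reads (a log2 difference of -0.76, limma adjusted p = 0.00019) and Cacng2, which encodes stargazin, a trafficking subunit of AMPA receptors, from 672 ± 47.3 to 477 ± 59.9 (-0.50, limma adjusted p = 0.000802). Both also fell after the removal (limma adjusted p = 0.0388 and 0.000997). Among 19 scaffolds of glutamate receptors 2 rose and 6 fell, with 0 and 2 after the removal. Shank1 (1937 ± 178 to 1309 ± 155) fell in both forms, while Shank3 (1045 ± 84.1 to 716 ± 40.8) did not pass after it (limma adjusted p = 0.128).

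Of 15 genes of glutamate synthesis and transport, 3 rose and 1 fell, and 1 and 1 after the removal. The vesicular glutamate transporter genes went opposite ways: Slc17a6 rose from 3708 ± 54.6 to 4440 ± 18.5 normalised reads and Slc17a7 fell from 6684 ± 314 to 5770 ± 428. Neither passed after the removal (limma adjusted p = 0.709 and 0.683). Of 9 genes of GABA synthesis, breakdown and transport 1 rose and 2 fell, with 0 and 1 after it. The GABA transporter gene Slc6a13 fell from 431 ± 15.8 to 281 ± 20.9 (log2 fold change -0.62, and -0.48 after the removal, limma adjusted p = 0.00321).

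Among 17 genes that anchor or traffic GABA type A and glycine receptors, 3 rose and 4 fell, with 1 and 0 after the removal. Nlgn2, an adhesion protein of inhibitory synapses, fell from 4312 ± 198 to 3306 ± 240 (limma adjusted p = 0.000125, and 0.422 after it). Of 5 auxiliary subunits of GABA type B receptors 2 rose, with 1 after the removal. Kctd16, which shapes the kinetics of the receptor response, rose from 1771 ± 51.5 to 2377 ± 21.8 normalised reads in both forms (log2 fold changes 0.42 and 0.32, limma adjusted p = 3.68e-05 and 0.000406). Among 8 chloride transporters and their kinases 1 rose and 1 fell, with 0 and 2 after it. The kinase gene Stk39, which activates chloride uptake, fell from 6422 ± 220 to 5307 ± 510 (-0.28, and -0.34 after it, limma adjusted p = 0.000162). The chloride importer gene Slc12a2, named after its values were seen, stood at 3948 ± 301 and 3920 ± 267 and did not pass as deposited (limma adjusted p = 0.931), but was called lower after the removal (-0.21, limma adjusted p = 0.0155).

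Of 5 genes of acetylcholine synthesis, breakdown and transport 1 rose and 1 fell, with 1 and 0 after the removal: the cholinesterase genes Bche (299 ± 22.3 to 465 ± 35.5) and Ache (3079 ± 110 to 2415 ± 220) went opposite ways, and neither passed after it. Among 15 genes of nicotinic receptor assembly and modulation 2 rose and 3 fell, with 1 and 1 after it. Ly6h, which encodes a surface protein that lowers nicotinic responses, fell from 1396 ± 59.8 to 986 ± 80.8 (log2 fold change -0.50, and -0.42 after the removal, limma adjusted p = 0.00013). None of the 3 delta receptor genes, 6 genes of glycine transport and breakdown or 4 muscarinic receptor genes passed in either form.

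The libraries held 18813027 to 23774244 recovered reads. The markers of sensory neurons summed to 22590 to 23747 CPM in vehicle and 21936 to 22611 CPM in NTG, and those of satellite glia to 5200 to 5411 and 4809 to 4975 CPM, the latter without overlap. Fibroblast (1233 to 1375 and 1030 to 1205 CPM) and macrophage markers (93.8 to 103 and 81.1 to 90.5) were also lower without overlap. So were those of skeletal muscle (74.0 to 81.6 and 67.0 to 73.2) and of central neurons (323 to 348 and 270 to 309). No list was higher without overlap. Most of the skeletal muscle sum was Pvalb, which did not pass (log2 fold change 0.04, limma adjusted p = 0.755), so the sum hides the 7 muscle markers that fell. The central neuron sum covers 3 of 8 listed genes and was nearly all Slc17a7, the glutamate transporter gene given above. Of the other 2, Cbln1 fell and Gad1 did not pass (-0.55 and 1.34). Of 12 sensory neuron markers 2 rose and 5 fell, and of 8 satellite glia markers 3 rose and 2 fell, against 12.3% and 13.5% of all genes tested. After the removal 2 and 2 of the neuron markers and 1 and 1 of the glia markers passed, against 3.49% and 5.5%. Tissue that dissection can carry in was uneven: pituitary markers summed to 75.9 to 189 CPM in vehicle and 16.5 to 116 in NTG, and choroid plexus markers to 31.0 CPM in NTG replicate 1 against 6.54 to 10.4 in the other libraries. Most of the choroid plexus excess was the single gene Ttr, with 415 normalised reads in NTG replicate 1 and 2.18 to 19.8 in the other libraries. Of the markers in the table, the skeletal muscle genes Tnnc2 and Tnnt3 had a library at 0. The part of these differences in the receptor results was not tested.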

How the data were processed

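The authors deposited 1 table with a signal per gene and library, gene counts divided by 1 size factor per library. FastQC, HISAT2 and the build GRCm38 are named, per the submitters' processing notes. Libraries were made from poly-T enriched RNA with a strand-specific kit, per the labels' protocols. How reads were counted (tool, strand, gene models) and which tool set the size factors is not given in the sources used here. Every deposited value was a whole multiple of 1 step (100% within 0.01), so whole reads were recovered. Their totals were 18813027 to 23774244, and 3 reads are 0.126 to 0.159 CPM, for counting error only.

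The main test was limma-trend (limma 3.58.1, R 4.3.3) with robust empirical Bayes on log2(value + 1) on 17475 genes, those that reached a value of 1 in 3 or more libraries, adjusted over all of them by Benjamini-Hochberg. Fold changes are on that scale, which understates those of low genes. Means ± SD are of the deposited values (n = 3 a group). GC content and length are of the longest annotated transcript (GENCODE M21, matched for 93.2% of genes and for all 51 receptor genes). Smooth trends of each library over both were removed with mgcv 1.9.3. Alternatives were edgeR 4.0.16 and DESeq2 1.42.0 on the recovered reads, the pseudocount, filters, TMM scaling, a block for the replicate number and fits without each library; the mean over transcripts was added after the data were seen. Scripts were tested on simulated data.

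By the naming rule, all receptor genes past the threshold, the highest per length in each family and those in clusters with a call were named, except that 4 of the 51 receptor genes enter the counts and sums but are not reported here by name or drawn, and from each partner list up to 4 genes with the smallest p. The members and lists were chosen with earlier results of these data known.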

Additional observations from a re-analysis of the deposited data

How the results depend on the processing

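As deposited, the counts of 11 receptor genes higher and 5 lower were within 1.5 times under the other pseudocounts, filters and scalings, edgeR and DESeq2. Leaving out 1 library gave 10 to 14 higher and 1 to 7 lower, with 1 lower without NTG replicate 1, 2 without vehicle replicate 2 or vehicle replicate 3, and 3 without NTG replicate 2. After the GC and length removal, 2 were higher and 1 lower (3 and 1 with the mean over transcripts), and leaving out 1 library gave 1 to 4 and 0 to 1. For the 122 partner genes, 15 higher and 22 lower became 5 and 10 after the removal (6 and 11 with the mean over transcripts), 10 to 15 and 15 to 23 with 1 library left out, and 1 to 6 (1, 3, 3, 5, 6 and 6) and 6 to 12 (6, 7, 8, 9, 11 and 12) with both. Why fewer genes passed after the removal was not tested beyond the trend itself.

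The replicate numbers did not pair the libraries: deviations of same-numbered libraries correlated at 0.00, -0.03 and -0.02. With the replicate block, 12 receptor genes were higher and 7 lower; with the replicate block and the removal together, 4 and 2, and 6 and 13 of the partner genes.

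Among the named genes past the threshold, the estimates of Grin1, Grin2d and Grm4 changed sign after the removal. That of Grin1 was 0.11 (0.11 with the replicate block and 0.057 with the mean over transcripts) and that of Grin2d 0.030 (0.030 and 0.035). That of Grm4 was 0.063 (0.063 with the replicate block), but it stayed negative with the mean over transcripts (-0.016). The cause was not tested. With the replicate block and the removal together, Gria2 was called lower (-0.21) and Gria4 higher (0.18, limma adjusted p = 0.0429). With the mean over transcripts Gria2 was only -0.042 and not called (limma adjusted p = 0.802), so its estimate depended on the transcript in use. With 1 library left out and the trends removed, signs changed as follows for named genes called in either form. The log2 fold change of Grin1 was 0.14 without vehicle replicate 1, 0.091 without vehicle replicate 2, 0.12 without vehicle replicate 3, 0.10 without NTG replicate 1, 0.091 without NTG replicate 2 and 0.15 without NTG replicate 3. That of Grin2d was 0.14 without vehicle replicate 1, 0.084 without vehicle replicate 3, 0.0039 without NTG replicate 1, 0.078 without NTG replicate 2 and 0.012 without NTG replicate 3. That of Grm4 was 0.013 without vehicle replicate 1, 0.056 without vehicle replicate 2, 0.12 without vehicle replicate 3, 0.084 without NTG replicate 1, 0.048 without NTG replicate 2 and 0.055 without NTG replicate 3. For Gabra2 it was -0.0057 without vehicle replicate 2. For Gria2, 0.19 as deposited, it was -0.27 without vehicle replicate 2, where it was called lower, and between -0.27 and -0.16 over the 6 fits. Named genes called in neither form also changed sign in at least 1 of these fits: Gabrb1 reached -0.24, Gabra5 -0.22, Gabra4 -0.12, Chrnb3 -0.086 and Grik1 -0.036. Depth limits the low genes most, and 8 receptor genes had a mean under 1 CPM.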
